A study of Homo sapiens with 12 samples.

Results

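The 5 genes described here, SQSTM1, NBR1, OPTN, CALCOCO2 and TAX1BP1, encode the ubiquitin-binding cargo receptors of selective autophagy. They were chosen by name as a family, with earlier results of these data known, and all 5 were found among the 47634 gene identifiers of the count files, as ENSG00000161011.15, ENSG00000188554.9, ENSG00000123240.12, ENSG00000136436.10 and ENSG00000106052.9. All 5 were also among the 11051 genes that had enough counts to be tested. The libraries came from HepG2, a human hepatocellular carcinoma line, either wild type (WT) or with ATP7B knocked out (KO). ATP7B is the copper-exporting ATPase whose loss causes Wilson disease. Each line was sequenced untreated and after 24 h with copper (Cu), giving 4 groups of 3 libraries labelled as biological replicates, and the series title places the work in the study of autophagy and cell survival in Wilson disease. The labels name neither the copper dose nor the edit in ATP7B, and they describe 1 KO line, so a difference between KO and WT cannot be told apart from any other difference between these 2 lines. Nothing in the labels says whether replicates were separate cultures, so p-values measure the spread between these libraries, which may be technical.

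Selective autophagy delivers marked cargo, such as protein aggregates, damaged mitochondria or bacteria, to the autophagosome, the membrane sac that fuses with the lysosome. A cargo receptor bridges the 2 sides of this step: one part binds ubiquitin on the cargo and a short LC3-interacting motif binds LC3 or GABARAP proteins on the growing membrane. Receptors are themselves degraded with their cargo, so a transcript level says nothing about how much receptor protein is present. In liver, SQSTM1 (also called p62) is the best known of them. It accumulates in the inclusion bodies of stressed hepatocytes and binds KEAP1, the inhibitor of the antioxidant factor NRF2, and its own gene is a target of NRF2.

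Libraries held 976658 to 3829151 counts, and values are given as CPM, the count divided by the library total and scaled to 1e6. The method reads a tag near the 3′ end, about 1 per transcript, so that levels of different genes are set side by side with no correction for length. A level of 3 counts, the limit that a count of 0 allows, correspond to 0.783 to 3.07 CPM, far below the lowest value of any of the 5 genes (43.6 CPM). WT copper replicate 1 and KO untreated replicates 1 and 2 stood apart from the other 9 libraries on the first principal component (24.1, 112 and 121 against -44.2 to -6.40; 42.4% of the variance). KO untreated replicates 1 and 2 were also the shallowest. These 3 libraries are called the outlying libraries, and results are given with and without them. Without them KO untreated is replicate 3 alone, which is then assumed to vary like the other groups. With all libraries that group varied more. Correlations of log2 CPM across genes were 0.852 and 0.830 for its replicate 3 with replicates 1 and 2, and 0.932 between replicates 1 and 2. Within KO untreated it was thus replicate 3, the one kept, that differed most. In the other groups correlations were 0.925 to 0.988 between replicates. Calls of the fit without the outlying libraries therefore rest, in comparisons with KO untreated, on the spread of other groups. ATP7B transcripts were counted in all groups, at 12.4 to 13.1 CPM in WT untreated, 3.87 to 5.34 in WT copper, 2.05 to 11.6 in KO untreated and 3.92 to 6.77 in KO copper, and since the position of the edit is not stated these tags neither support nor contradict the KO label. Summed CPM of 8 hepatocyte markers ranged from 18145 to 18927 in WT untreated, 8521 to 9431 in WT copper, 8678 to 10313 in KO untreated and 3671 to 3899.8 in KO copper. The markers did not all follow their sum. Means in KO untreated were below WT untreated for ALB (1000 against 6876 CPM), AFP, APOA1, TTR and TF. They were above it for APOB (3061 against 1896 CPM), SERPINA1 (680 against 541) and FGB (264 against 213). Of 5 immune markers CD3E was at 0 throughout and PTPRC reached at most 0.281 CPM. LYZ was at 178 to 1454 CPM. Sums were 2.77 to 56.9 CPM for 6 fibroblast markers and 0 to 10.2 CPM for 2 endothelial ones. Mitochondrial genes held 2.97% to 3.81% of counts in WT untreated libraries and 5.82% to 9.46% in the other 9. The part of these differences in the results that follow was not tested. In these bulk libraries fewer cells with a transcript and less of it per cell cannot be told apart.

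SQSTM1 was the receptor with the widest range. It was at 150.8, 149 and 165 CPM in the WT untreated replicates, in numerical order, against 1583, 1099.8 and 906 CPM in WT copper. The KO untreated libraries had 808, 744 and 299 CPM, and the KO copper libraries 1370.2, 1624 and 1592 CPM in copper. Within each line every copper library lay above every untreated one, and every KO untreated library lay above every WT untreated one. The 3 KO untreated values did not form a tight group: replicates 1 and 2, both outlying, were the high ones and replicate 3 the low one. The ranges of WT and KO overlapped in copper. SQSTM1 rose with copper in WT cells (log2 fold change 2.98 ± 0.37 SE, adjusted p = 0.00046, edgeR) and in KO cells (1.40 ± 0.35, adjusted p = 0.0098), and was higher in untreated KO than in untreated WT cells (1.89 ± 0.36, adjusted p = 0.0031). Leaving out the 3 outlying libraries took these values to 2.75, 2.55 and 0.76 on the log2 scale. The second value went up and the third went down by more than 1.5 times in fold. Both rest on KO untreated replicate 3 alone. Fitted on the KO libraries alone, the copper response of KO cells was not called (1.33, adjusted p = 0.071). A gene on the opposite strand, MRNIP, covers the 3′ end of SQSTM1 and reached at most 23.2 CPM. The strand setting of the counting was not given in the sources used here. Reads of the 2 genes may not be fully separated.

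NBR1 was lower in both comparisons with WT untreated cells in which SQSTM1 was higher. Its protein resembles SQSTM1 in build, with a PB1 domain for binding SQSTM1 filaments and a ubiquitin-associated domain, and it helps gather ubiquitin condensates. The WT untreated libraries had 271, 272 and 254 CPM of NBR1 and the WT copper libraries 86.5, 151 and 175 CPM. KO cells had 61.7, 58.4 and 119 CPM untreated and 94.0, 88.3 and 94.4 CPM in copper. Every WT untreated library was above each of the other 9 libraries. NBR1 was lower in untreated KO than in untreated WT cells (-1.86 ± 0.28, adjusted p = 0.0010), with -1.36 without the outlying libraries. It fell with copper in WT cells (-0.93 ± 0.28, adjusted p = 0.040), and that call ended without WT untreated replicate 1, 2 or 3, WT copper replicate 1 or 2, or KO copper replicate 1, 2 or 3 (adjusted p = 0.063 to 0.123). Copper in KO cells gave 0.33 ± 0.28 (adjusted p = 0.38, 95% interval -0.28 to 0.94), a value that turned to -0.17 without the outlying libraries (adjusted p = 0.34) and to 0.63 without KO untreated replicate 3 (adjusted p = 0.034).

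OPTN, which encodes optineurin, a receptor for damaged mitochondria and bacteria that the kinase TBK1 phosphorylates, was not called with copper in either line. Its levels were 180.3, 196 and 153 CPM in WT untreated replicates 1 to 3, 174, 126 and 110.4 CPM in WT copper, 84.5, 84.0 and 94.9 CPM in KO untreated, and 109, 108 and 104 CPM in KO copper. The copper and untreated ranges overlapped in WT and did not in KO cells. Neither copper comparison was called (WT -0.34 ± 0.20, adjusted p = 0.28, 95% interval -0.77 to 0.10; KO 0.40 ± 0.20, adjusted p = 0.14, 95% interval -0.04 to 0.84). Without the outlying libraries OPTN fell in WT cells (-0.52, adjusted p = 0.00043). Untreated KO cells had less OPTN than untreated WT cells (-1.13 ± 0.20, adjusted p = 0.0025), with -1.09 without the outlying libraries.

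CALCOCO2 encodes NDP52, which recognises ubiquitin and galectin-8 on damaged vesicles and recruits the autophagy initiation complex. It was at 87.3, 90.4 and 83.1 CPM in WT untreated replicates 1 to 3, 94.5, 110.7 and 132 CPM in WT copper, 43.6, 48.1 and 61.6 CPM in KO untreated, and 123, 122 and 120.2 CPM in KO copper. All 3 KO untreated libraries were below every other library. CALCOCO2 rose with copper in KO cells (1.36 ± 0.19, adjusted p = 0.00031) and was lower in untreated KO than in untreated WT cells (-0.89 ± 0.18, adjusted p = 0.0047). In WT cells the copper groups did not overlap, but the change of 0.40 ± 0.18 was not called (adjusted p = 0.16). It was called without the outlying libraries (0.54, adjusted p = 0.00027) and without KO untreated replicate 3 (0.45, adjusted p = 0.025).

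TAX1BP1, related to NDP52 and sharing its N-terminal SKICH domain, is a receptor for ubiquitin-rich aggregates. Its levels were 229.9, 223 and 237 CPM in WT untreated replicates 1 to 3, 426, 519 and 502 CPM in WT copper, 222, 204 and 241 CPM in KO untreated, and 569.5, 646 and 635 CPM in KO copper. Untreated ranges of the 2 lines overlapped, and every copper library lay above every untreated library. TAX1BP1 rose with copper in WT cells (1.09 ± 0.16, adjusted p = 0.0012) and in KO cells (1.59 ± 0.17, adjusted p = 5.68e-05). Both calls were made in each of the 19 alternative fits, and without the outlying libraries the values were 1.21 and 1.55. Untreated KO and WT cells differed by -0.17 ± 0.16 (adjusted p = 0.43, 95% interval -0.53 to 0.18).

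**Figure D1:**
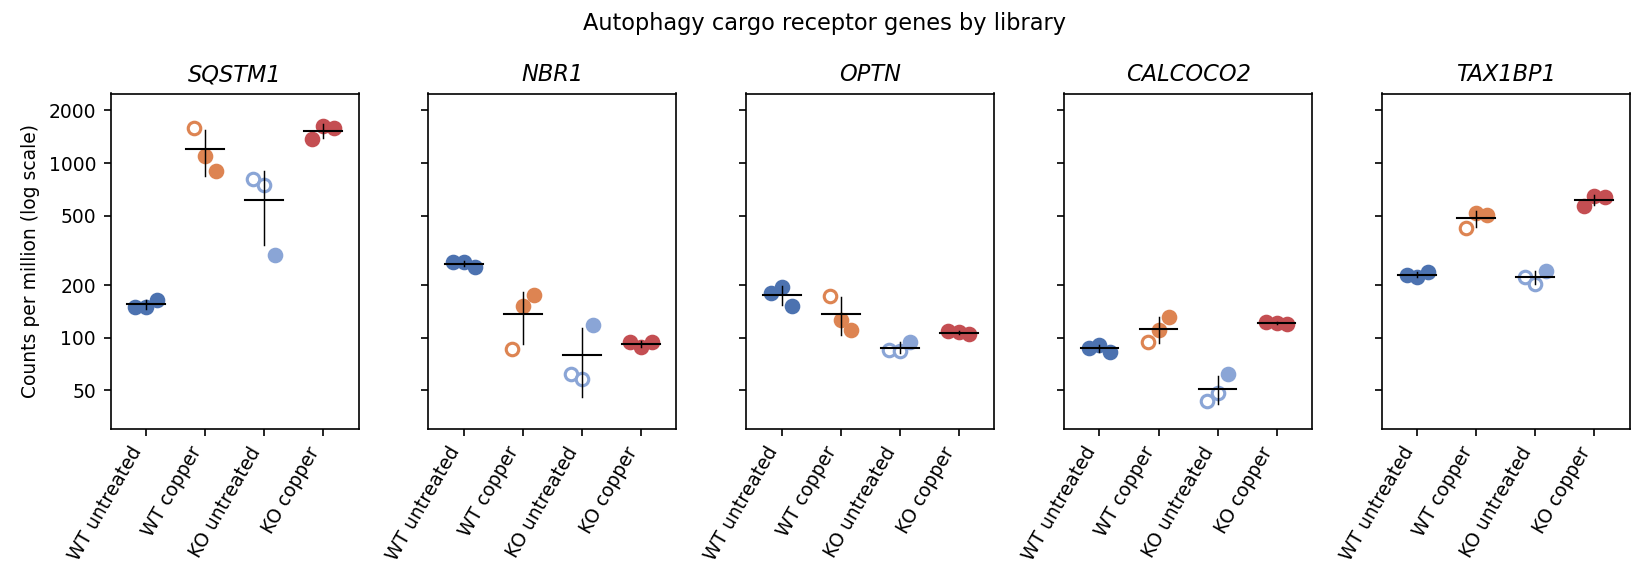
Each point is the level of 1 gene in 1 library, in CPM on a log axis, for WT and KO cells untreated and with copper. Horizontal lines are means, vertical lines ± 1 SD (n = 3), and open circles mark the 3 outlying libraries. SQSTM1 and TAX1BP1 are higher in all copper libraries than in the untreated libraries of the same line, whereas NBR1 is highest in the WT untreated libraries.

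Set against all genes tested, copper in WT cells called 3 of the 5 receptors, 2 up and 1 down, where 14.9% of genes were called (8.23% higher and 6.68% lower). CPM ranges of copper and untreated libraries did not overlap for 4 of the 5, where 48.4% of genes did not. Copper in KO cells called 3 of 5, all higher, where 33.7% of genes were called and 15.2% were called higher. Here too 4 of 5 did not overlap, beside 44.3% of genes. The median log2 fold change of the 5 was 0.40 in WT cells, against -0.03 over all genes tested, and 1.36 in KO cells, against 0.01. Without the outlying libraries copper called 5 of 5 in WT cells (3 higher, 2 lower; 42.5% of genes called) and 3 of 5 in KO cells (all higher; 41.8% of genes called). SQSTM1 and TAX1BP1 were called higher with copper in both lines, and no receptor was called lower with copper in KO cells.

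Before copper the lines differed in 4 of the 5 receptors, where 31.9% of all genes were called. SQSTM1 was higher in KO cells, and NBR1, OPTN and CALCOCO2 were lower (17.9% of genes were called higher and 14.0% lower). Ranges of KO and WT did not overlap for these 4, as for 44.7% of genes. These 4 were called in each of the 19 alternative fits, among them the one without the outlying libraries (36.6% of genes called). In copper no receptor was called between the lines by edgeR, where 13.8% of genes were called (5.77% higher and 8.03% lower). At an unadjusted p under 0.05 there was 1 of 5, and the share of all genes under that limit was not counted. DESeq2 and limma voom called 0 receptors, where they called 2022 and 1617 genes. SQSTM1 differed by 0.32 ± 0.35 there (95% interval -0.43 to 1.06) and TAX1BP1 by 0.32 ± 0.16 (-0.03 to 0.68). NBR1 differed by -0.61 ± 0.28 (-1.21 to -0.01) and OPTN by -0.39 ± 0.20 (-0.83 to 0.05). The CALCOCO2 difference was 0.08 ± 0.18 (-0.31 to 0.47), and it was -0.05 without the outlying libraries and -0.01 without WT copper replicate 1. OPTN and TAX1BP1 ranges did not overlap, which was so for 46.3% of genes. Without the outlying libraries 3 were called, SQSTM1 at 0.56, NBR1 at -0.88 and TAX1BP1 at 0.22 (40.2% of genes called). A receptor not called in copper is therefore not shown to be alike in the 2 lines.

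The interaction, the copper effect in KO minus that in WT cells, called none of the 5 by edgeR, where 4.93% of genes were called (1.26% higher and 3.67% lower). At an unadjusted p under 0.05 there were 4, and the share of all genes under that limit was not counted. DESeq2 called 3 receptors, where it called 1831 genes, and limma voom 0, where it called 139 genes. SQSTM1 was at -1.58 ± 0.49 (edgeR adjusted p = 0.069) and NBR1 at 1.25 ± 0.39 (adjusted p = 0.068). CALCOCO2 was nearest the threshold, at 0.97 ± 0.26 (adjusted p = 0.05004). OPTN and TAX1BP1 were at 0.74 ± 0.28 and 0.49 ± 0.23 (adjusted p = 0.108 and 0.157). For SQSTM1 the difference went to -0.20 without the outlying libraries (adjusted p = 0.46) and to -2.04 without KO untreated replicate 3 (adjusted p = 3.87e-05). NBR1 went to 0.48 without the outlying libraries and was called without KO untreated replicate 3 (adjusted p = 0.00087). The fit without KO untreated replicate 3 called the interaction for 5791 genes, against 545 genes with all libraries. CALCOCO2 was called in that fit too (0.97, adjusted p = 0.0029), and also without WT copper replicate 3 (1.10, adjusted p = 0.041). The SQSTM1, NBR1 and CALCOCO2 calls without KO untreated replicate 3 are therefore among many. They do not set these receptors apart from other genes. CALCOCO2 passed the threshold without the outlying libraries (0.64, adjusted p = 0.033), as did OPTN (0.89, adjusted p = 0.0025); 9.40% of genes were called there, 4.37% higher and 5.03% lower. The interaction shares all 4 groups with the comparisons above and is not independent of them.

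**Figure D2:**
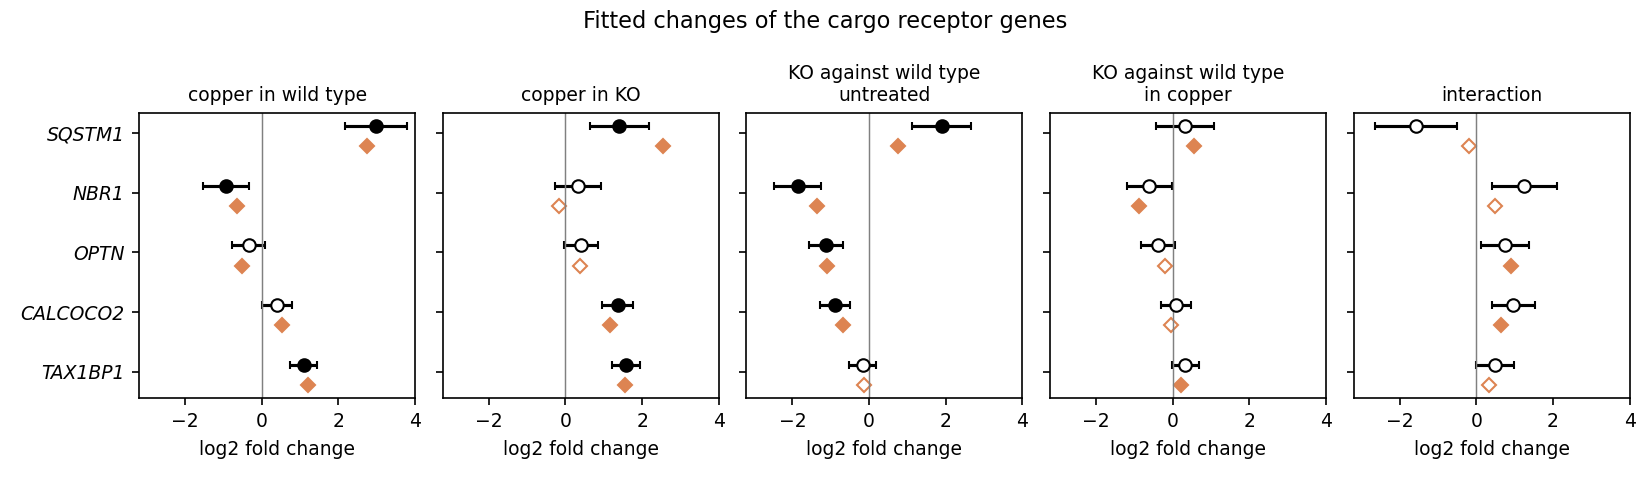
Log2 fold changes of the 5 receptor genes in the 5 comparisons. Circles are edgeR values from all 12 libraries with 95% intervals, diamonds are values without the 3 outlying libraries, and filled symbols have adjusted p under 0.05. SQSTM1 moves from -1.58 to -0.20 for the interaction, from 1.40 to 2.55 for copper in KO and from 1.89 to 0.76 for untreated KO against WT.

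The make-up of the receptor transcripts can be read within a library, with no scaling between libraries. In WT untreated cells the order of levels was NBR1, then TAX1BP1, then OPTN and SQSTM1, whose ranges overlapped, and then CALCOCO2. NBR1 was 28.5% to 29.5% of the summed counts of the 5 genes there and SQSTM1 16.0% to 18.5%. In each KO copper library the order was SQSTM1, TAX1BP1, CALCOCO2, OPTN and NBR1. CPM ranges of neighbours did not overlap. Ranges of the shares overlapped for CALCOCO2 (4.71% to 5.41%) and OPTN (4.10% to 4.80%), and for OPTN and NBR1. NBR1 had gone from first to last at 3.41% to 4.15%. SQSTM1 was 60.5% to 62.7% of the sum in KO copper and 49.6% to 67.0% in WT copper. WT copper cells had SQSTM1 first and TAX1BP1 next, and the ranges of the other 3 overlapped. In KO untreated cells SQSTM1 was 66.2% and 65.4% in the outlying replicates 1 and 2 and 36.7% in replicate 3, so that it led the order in all 3, with TAX1BP1 next. OPTN came next in replicates 1 and 2 and NBR1 in replicate 3. Replicate 3 also had NBR1 at 14.5%, against 5.05% and 5.13% in the outlying pair. TAX1BP1 held 24.0% to 26.6% in WT untreated and 24.95% to 25.1% in KO copper, and ranged more widely in WT copper (18.01% to 27.5%) and KO untreated (17.9% to 29.6%). NBR1 counts per SQSTM1 count were 1.54 to 1.82 in WT untreated, 0.0546 to 0.193 in WT copper, 0.0763 to 0.397 in KO untreated and 0.0544 to 0.0686 in KO copper. The summed level of the 5 genes was 914 ± 20.0 CPM in WT untreated, 2065 ± 275 in WT copper, 1058 ± 214 in KO untreated and 2466 ± 176 in KO copper (mean ± SD, n = 3).

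**Figure D3:**
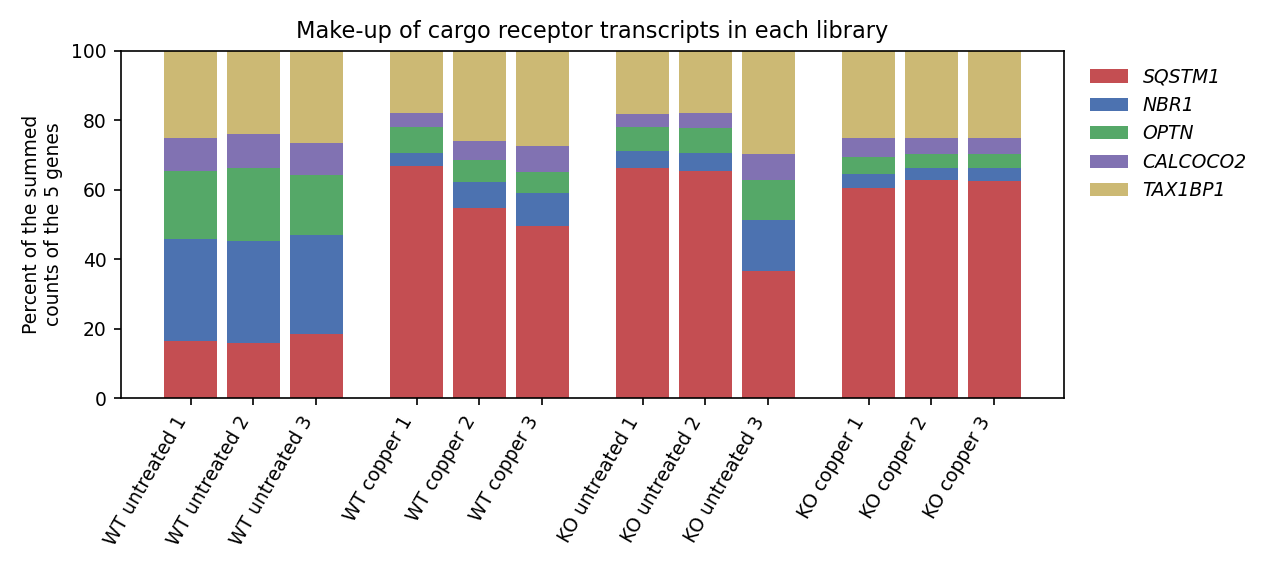
Each bar is 1 library and shows the percent of the summed counts of the 5 receptor genes that each gene holds. SQSTM1 holds 16.0% to 18.5% in WT untreated libraries and the largest share in the other 9, where KO untreated replicate 3 has the lowest value, 36.7%.

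SQSTM1, CALCOCO2 and TAX1BP1 were the receptors that rose with copper in KO cells, and their promoter sequence is shown for that reason. Windows of 250 bases before each RefSeq start site (build GRCh38.p14) were searched on both strands for TGACNNNGC (the antioxidant response element of NRF2), CACGTG (the core of the CLEAR element of TFEB), GAANNTTC (a heat shock element), TGCNCNC (a loose form of the metal response element of MTF1) and TGACGTCA (the cyclic AMP response element). None of the matches found overlapped another. Among 10 windows of the 5 genes TGACNNNGC matched 1, GAANNTTC 1, TGCNCNC 4, and the other motifs 0. Of all 35116 windows 10.9%, 5.78% and 49.1% held the first 3 of these, 6.34% held CACGTG and 1.65% TGACGTCA. The stretches below, from the most downstream start site listed for each gene, leave out bases that GENCODE v29 annotates as exon, and capitals mark the TGACNNNGC match, which lies on the minus strand. They are, in order, chr17:48830785-48830987, chr5:179820655-179820758 and chr7:27739912-27740015, all on the plus strand.
CALCOCO2: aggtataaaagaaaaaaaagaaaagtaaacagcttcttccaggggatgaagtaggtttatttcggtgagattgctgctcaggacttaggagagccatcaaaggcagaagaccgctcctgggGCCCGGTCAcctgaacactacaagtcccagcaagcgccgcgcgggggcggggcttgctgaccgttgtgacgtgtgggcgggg
SQSTM1: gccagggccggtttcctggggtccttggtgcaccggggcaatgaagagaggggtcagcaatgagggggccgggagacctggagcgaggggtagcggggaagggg
TAX1BP1: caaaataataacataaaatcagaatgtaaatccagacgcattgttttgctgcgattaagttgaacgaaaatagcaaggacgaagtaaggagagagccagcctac
The CALCOCO2 match begins 129 bases before the start site. The GAANNTTC match lay in the other TAX1BP1 window, 91 bases before its start site, and the TGCNCNC matches lay in 2 SQSTM1 windows, 1 of OPTN and 1 of NBR1. A match describes letters only, and windows of this length do not hold distant elements.

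The genes most like each receptor were found by the root mean square difference of log2 CPM over the 12 libraries, each gene centred on its own mean, among genes with a symbol and a mean of at least 5 CPM. SQSTM1 was nearest to GPAT3, PDP1 and HSP90AA2P (differences 0.284, 0.293 and 0.324), where the median over the other 9660 genes was 1.49. HSP90AA2P is a pseudogene whose reads may come from its parent. NBR1 was nearest to LMAN1, EML4 and STK24 (0.148, 0.165 and 0.197, median 0.945), and OPTN to ILK, RANBP3 and the pseudogene RPL10P3 (0.152, 0.161 and 0.178, median 0.740). CALCOCO2 was nearest to CCDC59, MRPS18C and TMSB10 (0.121, 0.126 and 0.133, median 0.792). TAX1BP1 was nearest to the proteasome subunit PSMB2, the proton pump subunit ATP6V0A1 and FAF2 (0.137, 0.183 and 0.184, median 0.904). Between the receptors themselves CALCOCO2 and TAX1BP1 were closest (0.373) and SQSTM1 and NBR1 farthest apart (1.96).

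Receptors work by binding LC3 and GABARAP proteins, and of 7 such genes 4 had enough counts to be tested. With copper 2 rose in WT cells and 3 rose and 1 fell in KO cells, as also without the outlying libraries. Median log2 fold changes of the list were 0.64 in WT and 2.13 in KO cells (-0.03 and 0.01 over all genes tested). Over all genes tested copper called 14.9% in WT and 33.7% in KO cells, and 42.5% and 41.8% without the outlying libraries. GABARAPL1 went from 59.6 to 239 CPM in WT and from 24.7 to 246 CPM in KO cells (log2 fold change 2.03 ± 0.28 and 3.40 ± 0.30, adjusted p = 0.00071 and 1.49e-05). It was lower in untreated KO than in untreated WT cells (-1.355, adjusted p = 0.0050), with -0.74 without the outlying libraries. That call was lost with only the groups compared (adjusted p = 0.0546). MAP1LC3B went from 54.2 to 133 and from 40.4 to 343 CPM (1.32 and 3.19; adjusted p = 0.030 and 0.00017), the first of which was lost without WT untreated replicate 1, 2 or 3 or WT copper replicate 2 or 3 (adjusted p up to 0.109). GABARAP fell in KO cells by 1.08 on the log2 scale (adjusted p = 0.0056) and GABARAPL2 rose by 1.08 (adjusted p = 0.0053). Without the outlying libraries the values were -0.58 and 0.75 for these, and 2.78 and 2.53 for GABARAPL1 and MAP1LC3B in KO cells.

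Of 32 tested genes of the core autophagy machinery 2 rose in WT cells with copper, and 8 rose and 3 fell in KO cells (10 and 1, and 15 and 4, without the outlying libraries). Of all genes tested 14.9% were called in WT and 33.7% in KO cells. With all libraries the share called in the list was thus below that of all genes in WT and near it in KO cells. Without the outlying libraries, which leaves 1 KO untreated library, it was still below in WT cells and was above in KO cells. Median log2 fold changes of the list were 0.31 in WT and 0.49 in KO cells, against -0.03 and 0.01 over all genes. RB1CC1 encodes FIP200, the part of the initiation complex that several receptors bind. It rose in KO cells by 0.96 ± 0.16 (adjusted p = 0.0011) and was at 0.18 in WT cells (adjusted p = 0.46). VMP1, which acts in autophagosome membrane growth, rose by 1.59 in KO cells (adjusted p = 0.00014) and by 0.66 in WT cells (adjusted p = 0.031), the latter lost in 9 of 19 alternative fits, 8 of which left out 1 WT untreated, WT copper or KO copper library (adjusted p up to 0.185). ATG9A and WIPI1 were lower in KO than WT cells, untreated and in copper (-0.93 and -1.37 for ATG9A, adjusted p = 0.0055 and 0.0012; -1.11 and -1.61 for WIPI1, adjusted p = 0.0049 and 0.0011). The untreated WIPI1 call was lost with only the groups compared (adjusted p = 0.0514). RB1CC1 and VMP1 were also lower in untreated KO than in untreated WT cells (-0.99 and -0.94, adjusted p = 0.0014 and 0.0040). Without the outlying libraries these 2 values were -1.05 and -0.61. The copper rises of RB1CC1 and VMP1 in KO cells thus started from a lower level.

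Another 24 tested genes act in selective autophagy as receptors of other cargo or as adaptors. With copper 3 rose and 3 fell in WT cells, and 5 rose and 7 fell in KO cells (3 and 5, and 4 and 4, without the outlying libraries). All genes were called at 14.9% and 33.7% (42.5% and 41.8%). The list's medians were -0.14 and 0.16, beside -0.03 and 0.01 over all genes. BAG3, a co-chaperone that passes clients to SQSTM1 in aggresome formation, rose by 2.52 ± 0.31 in WT cells (adjusted p = 0.00040) and by 4.33 ± 0.34 in KO cells (adjusted p = 8.01e-06), with 2.64 and 3.74 without the outlying libraries. NIPSNAP1, a mitochondrial protein that recruits receptors, fell in both lines with copper (-0.98 and -1.27, adjusted p = 0.0075 and 0.00093). The mitophagy receptors BNIP3 and BNIP3L were lower in untreated KO than in untreated WT cells (-2.64 and -3.14, adjusted p = 1.20e-05 and 0.00055), with -2.51 and -2.34 without the outlying libraries. Among 22 tested kinases and partners of the receptors copper called 2 up and 1 down in WT cells, and 4 up and 2 down in KO cells (5 and 3, and 6 and 2, without the outlying libraries). These shares were near or below the 14.9% and 33.7% of all genes (42.5% and 41.8%), and the medians were -0.03 and -0.09, beside -0.03 and 0.01. TANK, an adaptor of TBK1, rose in WT cells by 1.22 (adjusted p = 0.0077) and in KO cells by 0.97 (adjusted p = 0.016), the latter lost in 4 of 19 alternative fits, those with no filter, with only the groups compared and without KO copper replicate 1 or 2 (adjusted p up to 0.0798). MYO6, a myosin that binds OPTN, CALCOCO2 and TAX1BP1, was higher in untreated KO than in untreated WT cells by 0.80 (adjusted p = 0.0098). That call was lost with no filter and with only the groups compared (adjusted p up to 0.0664). Without the outlying libraries the value was 0.46.

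NRF2 targets are given because SQSTM1 is one of them and feeds back on KEAP1. Of 21 tested, 8 rose in WT cells with copper, and 11 rose and 1 fell in KO cells (17 and 0, and 12 and 1, without the outlying libraries). Of all genes 8.23% were called higher in WT and 15.2% in KO cells (21.2% and 20.6% without the outlying libraries). The list's medians were 0.80 and 1.04, beside -0.03 and 0.01 over all genes. HMOX1, which degrades haem, rose by 4.20 in WT and 2.71 in KO cells (adjusted p = 2.72e-05 and 0.00015). It was higher in untreated KO than in untreated WT cells by 1.84 (adjusted p = 0.0019), a value that went to 0.98 without the outlying libraries. GCLM, of glutathione synthesis, had the same 3 calls at 3.51, 2.29 and 1.23 (adjusted p = 3.32e-05, 0.00022 and 0.0080), the last at 0.56 without the outlying libraries. In KO cells with copper HMOX1 and GCLM went to 3.58 and 2.96 without the outlying libraries, beside 3.99 and 3.34 in WT cells. SLC7A11, the cystine transporter, rose by 3.37 and 3.35 with copper (adjusted p = 6.60e-06 and 4.28e-06) and was at 0.20 in untreated KO against WT cells (adjusted p = 0.51).

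Of 15 tested genes of the TFEB family and its targets 2 rose and 1 fell in WT cells with copper, and 5 rose and 1 fell in KO cells (6 and 2, and 9 and 1, without the outlying libraries). All genes were called at 14.9% and 33.7% (42.5% and 41.8%), so the list's shares were near them with all libraries. Its medians were 0.20 and 0.87, beside -0.03 and 0.01. The gene that fell in KO cells was TFEB itself, from 14.3 to 2.27 CPM (-2.54 ± 0.51, adjusted p = 0.0031). Its KO copper mean is near the level of 3 counts in those libraries, 1.07 to 1.26 CPM, so it rests on few counts. RRAGC, a GTPase of lysosomal mTORC1 control, rose in KO cells by 1.72 (adjusted p = 9.83e-05) and in WT cells by 0.77 (adjusted p = 0.019). The WT call was made in 13 of 19 alternative fits.

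**Figure D4:**
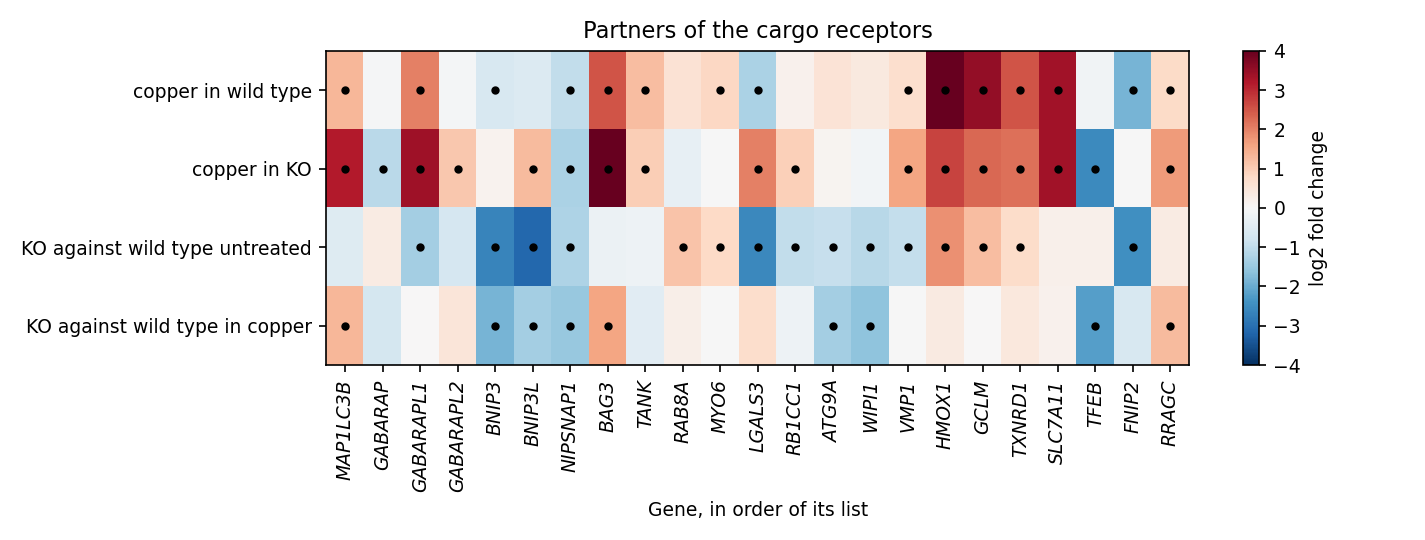
Colour gives the log2 fold change of each named partner gene, by column, in 4 comparisons, by row, and a dot marks adjusted p under 0.05 by edgeR. The columns follow the order LC3 and GABARAP genes, other selective receptors, kinases and partners, core machinery, NRF2 targets and TFEB family; HMOX1 in WT cells (4.20) and BAG3 in KO cells (4.33) lie past the colour limits of ± 4.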

How the data were processed

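QuantSeq libraries were made from 100 ng of total RNA, per the labels' protocols: 24 h of copper or none preceded RNA extraction, and 300 bp fragments were read single-end for 75 bp. Tools listed in the submitters' processing notes are STAR 2.3.0 and HTSeq with build hg19. Annotation release, strand setting and filters were not given in the sources used here. Deposited values are raw counts per gene, not normalized by the authors. Identifiers without version were matched to symbols for 45776 of 47634 identifiers (99.5% of counts). Counts were not placed by coordinate, and the promoter coordinates printed are those of RefSeq on GRCh38.p14, not hg19. Counts were tested with edgeR 4.0.16 (R 4.3.3): filterByExpr (11051 genes), TMM scaling, and a robust quasi-likelihood fit of 4 group means on 12 libraries. The Benjamini-Hochberg adjustment covers all genes tested, and genes are called at 0.05. SE was taken from the F statistic (fold change over its root). Alternatives, 19 in all, were relative log expression (RLE) factors, no filter, DESeq2 1.42.0, limma voom 3.58.1, a replicate block, only the groups compared, leaving out the outlying libraries, and leaving out each library. Steps were tested on simulated counts. Replicates differed by more than sampling noise (chi-square over its degrees of freedom ranged from 1.85 to 52.2) and each counts once. The 5 genes, the partner lists and the alternatives were chosen with earlier results of these data known. Named partners are up to 4 genes per list with the smallest adjusted p over the 5 comparisons, among 6 lists; a further list is not reported here. Motifs were chosen after the values were seen. Without molecular identifiers, limits from counts cover counting error only.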

Additional observations from a re-analysis of the deposited data

Results flagged for a closer look

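A difference between the lines in the response to copper, tested as the edgeR interaction (copper effect in KO minus copper effect in WT cells), drew attention to 3 of the named partner genes. The interaction called 4.93% of all genes tested. Named genes were picked by their smallest adjusted p over comparisons that include the interaction, so finding such calls among them is no separate support. BAG3 differed by 1.81 on the log2 scale (adjusted p = 0.041), having risen by 2.52 in WT and 4.33 in KO cells. LGALS3, which encodes a galectin that marks damaged vesicles, differed by 3.30 (adjusted p = 0.023), being at -1.26 in WT and 2.03 in KO cells. FNIP2, a folliculin partner in lysosomal signalling, differed by 1.84 (adjusted p = 0.042), being at -1.86 in WT and -0.02 in KO cells. LGALS3 and FNIP2 were already lower in untreated KO than in untreated WT cells (-2.585 and -2.468, adjusted p = 0.0015 and 0.00040, edgeR). Those values were -1.87 and -1.92 without the outlying libraries. The LGALS3 fall with copper in WT cells was called in 9 of 19 alternative fits. Without the outlying libraries the interaction values of BAG3, LGALS3 and FNIP2 were 1.09, 2.43 and 1.05. Over the 18 alternative fits BAG3 and FNIP2 were each called in 6 and LGALS3 in 10. Groups of 3 libraries are too small for a check of single outlying values.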

How the results depend on the processing

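Of the receptor values under alternative fits, 439 kept their direction and side of the threshold, 19 newly passed it, 9 no longer passed it and 3 changed direction. The changed directions were CALCOCO2 in KO against WT in copper (-0.053 without the outlying libraries, -0.014 without WT copper replicate 1, and -0.014 to 0.216 over all fits leaving out 1 library) and NBR1 with copper in KO (-0.17 without the outlying libraries). The causes were not tested. Receptors called numbered 5 for copper in WT, 3 for KO against WT in copper and 2 for the interaction without the outlying libraries. With only the groups compared, copper in KO called 2, SQSTM1 being lost. The interaction called 2 with no filter and 3 with DESeq2. Leaving out 1 library at a time gave 2 to 4 receptors for copper in WT, 3 to 4 for copper in KO, 4 for untreated KO against WT, 0 to 1 in copper and 0 to 3 for the interaction. Counts over all genes moved more. Copper in WT called 1648 genes, 3106 with only the groups compared, 4701 without the outlying libraries and 743 to 3742 leaving out 1 library. Copper in KO called 3721, 1895 with only the groups compared and 2378 to 6459 leaving out 1. Untreated KO against WT called 3521, 1304 with only the groups compared and 2010 to 6581 leaving out 1. In copper it was 1525, 2722 with only the groups compared, 4440 without the outlying libraries and 686 to 3534 leaving out 1. The interaction called 545, 2366 with no filter, 1831 with DESeq2, 139 with limma voom, 1039 without the outlying libraries and 13 to 5791 leaving out 1; the highest of each leave-one-out range came without KO untreated replicate 3. Same-numbered libraries did not deviate together (correlations -0.221 to 0.091 across 11051 genes), and the main fit did not pair them. With 3 libraries per group these correlations cannot show that no batch was shared. The replicate block gave the same receptor calls and 113 genes for the interaction, against 545. Of 59 called values of 23 partner genes, 59 kept their direction and 40 their call in every alternative.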
